A study of Bos taurus with 6 samples.

Results

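The prolactin receptor gene PRLR (ENSBTAG00000025035), the growth hormone receptor gene GHR (ENSBTAG00000001335) and the transcription factor gene STAT5A (ENSBTAG00000009496) were followed in the lactating mammary gland of 6 Holstein heifers. These 3 genes were taken by identifier from the 24579 genes counted, and earlier results of these data were known when they were chosen. All 3 passed the filter on low counts that kept 14724 genes. The heifers were gestated in late pregnancy by dams that were either heat stressed under shade without fans or soakers (IUHT-H, heifers 9196, 9203 and 9204) or cooled with shade, fans and soakers (IUCL-H, heifers 9202, 9214 and 9223). After birth, both groups were managed alike until a biopsy was taken on day 21 of the first lactation. Each library came from the biopsy of a separate heifer, so that the heat load was that of the dam before birth and the tissue was sampled long after it.

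Prolactin and growth hormone are pituitary hormones whose receptors are close relatives of the class I cytokine receptor family. Neither receptor has kinase activity of its own. A bound hormone brings JAK2 molecules on paired receptors together, and these phosphorylate the receptor and STAT5, which moves to the nucleus and binds DNA at its targets, the milk protein genes among them. STAT5A was first described as mammary gland factor, and growth hormone treatment is known to raise milk yield in established bovine lactation, in large part through IGF-I made in the liver.

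On the reference assembly ARS-UCD2.0 (RefSeq), PRLR and GHR lie on the same chromosome with 35 protein coding genes between them. PRLR lies between SPEF2 and AGXT2, and GHR between CCDC152 and FBXO4. STAT5A lies between STAT5B and STAT3. STAT5A and STAT5B encode very similar proteins, and it was not stated how reads that match both were counted, so the STAT5A counts are uncertain to that extent. The reads were mapped to an older assembly, and no coordinates are given for that reason.

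The total count ranged from 75754791 to 84969285 in IUHT-H and from 91696849 to 101361294 in IUCL-H. The 10 genes with the most counts held from 64.7% to 74.7% of a heifer's counts. The first of them alone held 23% of all counts and the second 19.1%. The shares of the groups overlapped: the share was 64.7%, 65.8% and 74.7% in IUHT-H 9203, 9196 and 9204, and 67.6%, 72.1% and 72.5% in IUCL-H 9202, 9223 and 9214. The mean share was 68.4% ± 5.48 in IUHT-H and 70.7% ± 2.73 in IUCL-H (SD), and an exact permutation test gave P = 0.6, where the smallest P that 3 against 3 heifers allow is 0.1. The overlap rested on 9204. Without it, both IUHT-H shares lay below all IUCL-H shares, and the difference of the means went from -2.3 to -5.45 percentage points (exact permutation test, P = 0.2), while without 9202 it was -3.87 (exact P = 0.4). The first principal component was taken of log2 CPM, which are counts scaled to library size and by TMM factors that set most genes equal between libraries. With 34.2% of the variance, this component ordered the heifers mainly by the share (r = 0.92 over 6 heifers, as a description). By the chi-square distance between their counts, 4 of the 6 heifers were nearest to a heifer of the other group, among them IUCL-H 9202, which was nearest to IUHT-H 9196, and IUHT-H 9204, which was nearest to IUCL-H 9223. IUCL-H 9214 and 9223 were both nearest to IUHT-H 9204. Results are also given without 9202 and without 9204 where they changed, and in places without other heifers.

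The labelled tissue could be checked against few markers, because the files list genes by identifier only. Of 36 marker genes of mammary cell types, 2 had an identifier in the study's supplementary tables. CLDN3, a tight junction gene of luminal epithelium, was present in every heifer at 62.4 to 94.1 CPM. JCHAIN, a gene of antibody-secreting cells, ranged from 36.7 to 69.6 CPM in IUCL-H and from 81 to 223.4 CPM in IUHT-H. JCHAIN was listed by the study for its difference in these heifers, so its separation is not independent evidence. In whole tissue, fewer cells of a type and less RNA per cell cannot be told apart.

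The first comparison asked whether gestation under heat stress left a difference in the expression of these lactation genes. None of the 3 genes had a P-value at or below the study's cut-off of 0.01, which 0.428% of all tested genes passed in edgeR's quasi-likelihood test (63 of 14724). After adjustment over all genes, 0 genes remained below 0.05 in edgeR's quasi-likelihood test, while 374 genes (2.54%) had an unadjusted P-value below 0.05, none of these 3 among them. The mean levels of PRLR and GHR were nearly equal in the groups, and that of STAT5A was lower in IUHT-H with overlapping values. The values of all 3 genes overlapped between the groups, whereas 6.06% of tested genes had no overlap.

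PRLR, the receptor that receives the prolactin signal at the surface of the milk-secreting cell, was counted 1623, 932 and 1006 times in IUCL-H 9202, 9214 and 9223. It was counted 1110, 1214 and 837 times in IUHT-H 9196, 9203 and 9204. Scaled to library size by the TMM method, which sets most genes equal between libraries, these were 16.1, 10.3 and 11.5 CPM in IUCL-H and 12.3, 12.9 and 12.1 CPM in IUHT-H. The 3 IUHT-H values lay within a narrow band and inside the range of IUCL-H, which 9202 stretched upward. The counting error of these values was between 2.48% and 3.46%, smaller than the differences between the IUCL-H heifers.

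Over 3 heifers each, PRLR had a mean of 12.5 ± 0.417 CPM (SD) in the IUHT-H group and 12.6 ± 3.08 CPM in IUCL-H. The log2 fold change of IUHT-H relative to IUCL-H was -0.021 with a standard error of 0.17 (P-value of 0.91, adjusted p = 1 in edgeR's quasi-likelihood test). The 95% interval reached from 0.749-fold to 1.3-fold, so that a rise or fall of PRLR by less than about these amounts could not be told from no change. Heifer 9202 decided the sign. Without it the log2 fold change was 0.19 (P-value of 0.16 by the quasi-likelihood test of edgeR), and without 9204 it was -0.0037.

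GHR, the receptor through which growth hormone acts on its target cells, was counted 1087, 1029 and 1317 times in IUCL-H 9202, 9214 and 9223 and 1059, 885 and 1122 times in IUHT-H 9196, 9203 and 9204. After TMM scaling its level was 10.8, 11.4 and 15 CPM in IUCL-H and 11.8, 9.43 and 16.3 CPM in IUHT-H. Both the lowest and the highest value were in IUHT-H, in heifers 9203 and 9204. In raw counts GHR varied less, and the highest count was only 1.49 times the lowest.

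The mean of GHR in 3 heifers was 12.5 ± 3.48 CPM (SD) in the IUHT-H group and 12.4 ± 2.28 CPM in IUCL-H. The log2 fold change was 0.0079 with a standard error of 0.22 (P-value of 0.97, adjusted p = 1 in edgeR's quasi-likelihood test), and the 95% interval reached from 0.71-fold to 1.42-fold. The fold change was closer to 0 than that of all but 3.47% of the tested genes. The spread inside the groups was nevertheless wide, with a pooled SD of 0.33 on the log2 scale, and 69.1% of the tested genes had a smaller one. For PRLR and STAT5A the pooled SD was 0.24 and 0.25, near the median of 0.23 over all tested genes. Without 9204, the log2 fold change of GHR was -0.23 (P-value of 0.26 by the quasi-likelihood test of edgeR), and without 9202 it was -0.081.

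STAT5A, the factor that carries the signal of both receptors to the nucleus, had 5399, 7077 and 7138 counts in IUCL-H 9202, 9214 and 9223. It had 5580, 5537 and 3673 counts in IUHT-H 9196, 9203 and 9204. The TMM-scaled levels were 53.7, 78.4 and 81.4 CPM in IUCL-H and 61.9, 59 and 53.3 CPM in IUHT-H. Heifers 9214 and 9223 stood above the others, and the remaining IUCL-H heifer, 9202, lay with the 3 IUHT-H.

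STAT5A averaged 58.1 ± 4.42 CPM (SD) over the 3 IUHT-H against 71.1 ± 15.2 CPM over the 3 IUCL-H. The log2 fold change was -0.29 with a standard error of 0.17 (P-value of 0.13, adjusted p = 1 in edgeR's quasi-likelihood test). The 95% interval reached from 0.618-fold to 1.08-fold, and 79.9% of the tested genes had a smaller fold change in either direction. Without 9202 the difference passed the cut-off, with a log2 fold change of -0.46 and a P-value of 0.008 by the quasi-likelihood test of edgeR (adjusted p = 0.59), in a fit where 1.65% of genes passed it. Without 9204, by contrast, the log2 fold change was -0.24 (P-value of 0.27 by the quasi-likelihood test of edgeR, where 1.49% of genes passed). Leaving out the other IUCL-H heifers also weakened it, to -0.22 without 9214 and -0.19 without 9223 (P-values of 0.31 and 0.37 by the same test). CLDN3 was likewise lowest in 9202 among IUCL-H (66.5 CPM against 86 and 94.1 CPM in 9214 and 9223) but reached 85.2 CPM in IUHT-H 9204, the heifer with the lowest STAT5A. Its part in the STAT5A values was not tested.

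**Figure D1:**
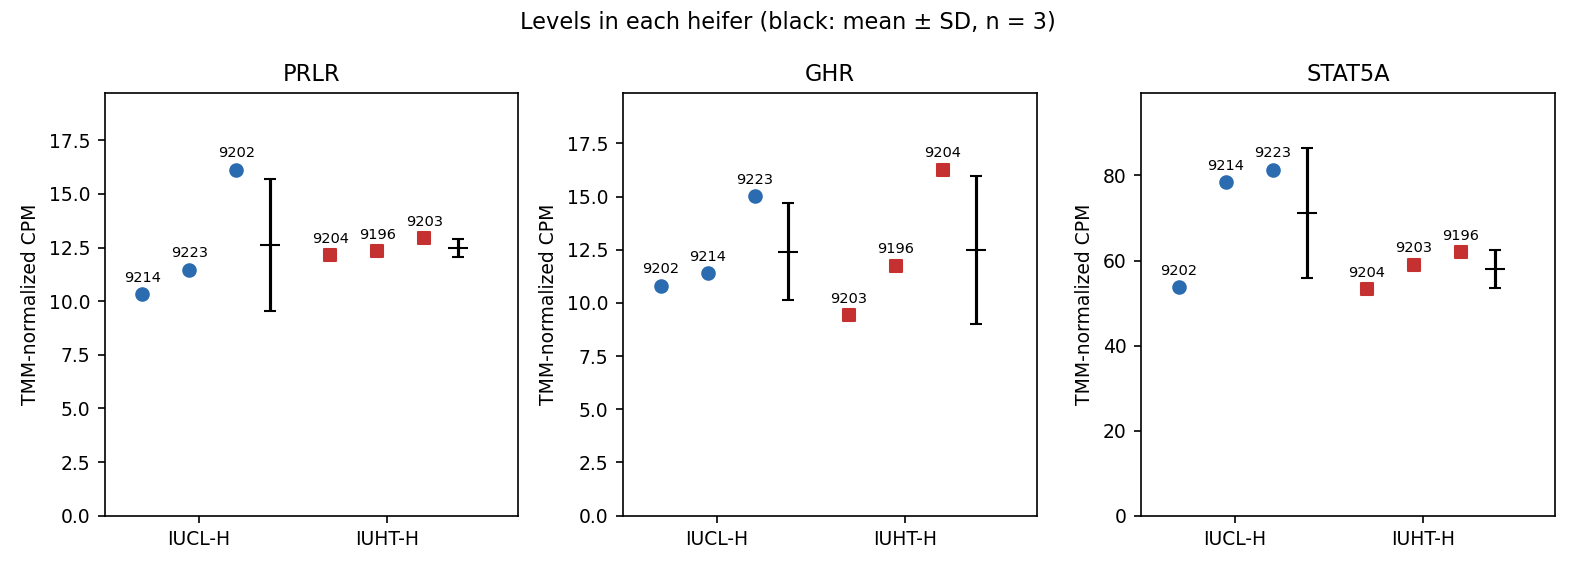
TMM-normalized CPM of PRLR, GHR and STAT5A in each heifer (points, labelled with the heifer), with the mean ± SD of each group in black; every vertical axis starts at 0 and each gene has its own scale. The IUHT-H values of PRLR lie between 12.1 and 12.9 CPM inside the IUCL-H range of 10.3 to 16.1 CPM, and the groups overlap in all 3 genes.

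The 3 fold changes were also computed with other tests, scalings and filters and without each heifer in turn. With the other tests and filters, RLE size factors or the 10 genes left out, they stayed between -0.025 and -0.015 for PRLR, between 0.0034 and 0.014 for GHR and between -0.3 and -0.28 for STAT5A. Scaling by library size alone raised all 3, to 0.089 for PRLR, 0.1 for GHR and -0.12 for STAT5A, and it moved the median log2 fold change of all tested genes from 0.0028 to 0.13. All 3 fold changes lay below that median with this scaling, none of them past the cut-off. With the share of the 10 genes as a covariate, the log2 fold changes were -0.076 for PRLR, 0.13 for GHR and -0.27 for STAT5A, with P-values of 0.65, 0.4 and 0.2 in edgeR's quasi-likelihood test.

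**Figure D2:**
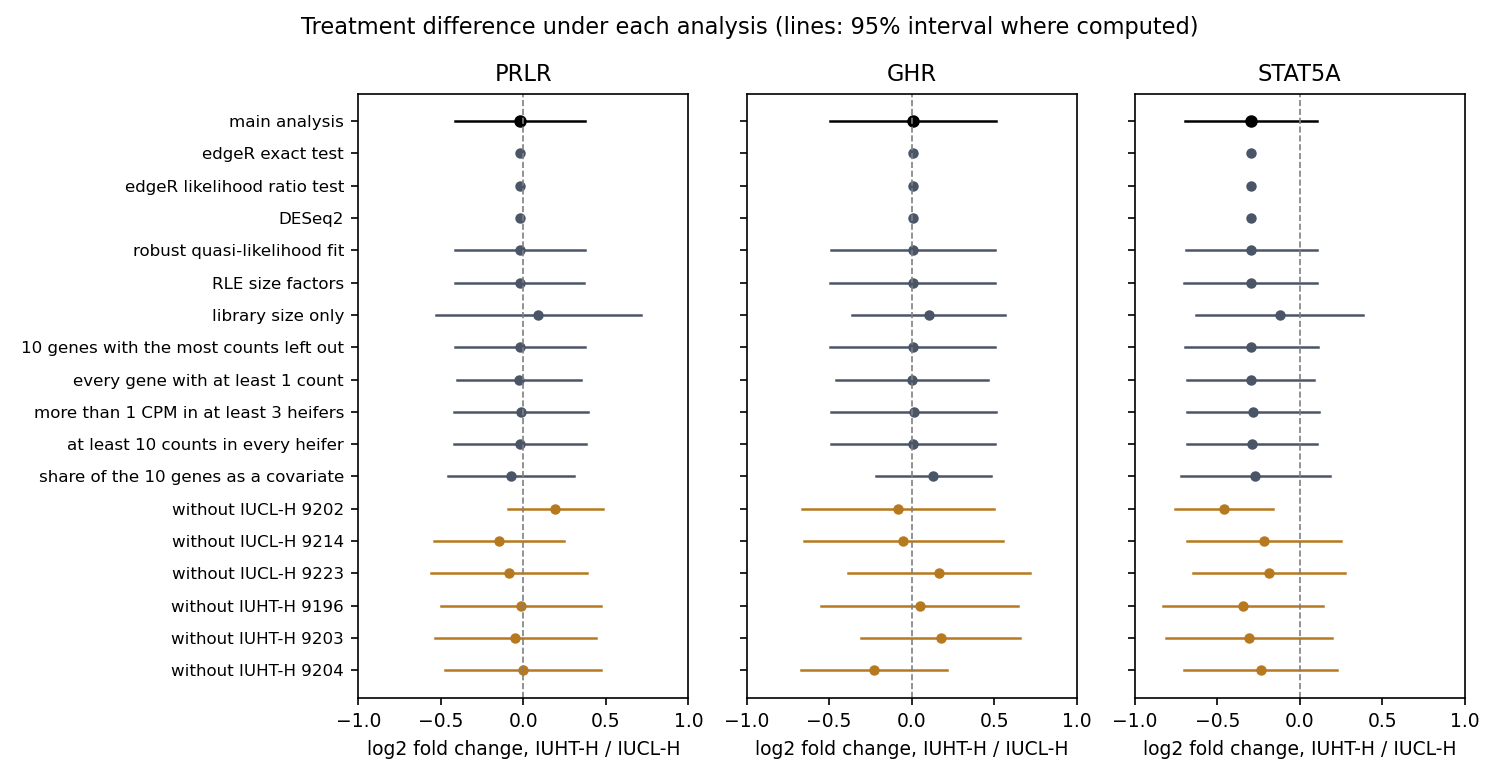
Log2 fold change of IUHT-H relative to IUCL-H for PRLR, GHR and STAT5A (points) in the main analysis (black), with other tests, scalings, filters or a covariate (grey) and without each heifer (orange), with 95% intervals as lines where computed. The interval contains 0 in every case drawn except STAT5A without IUCL-H 9202, at -0.46.

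The second comparison asked how each gene followed the share of counts in the 10 genes with the most counts. With TMM scaling, the GHR values were mostly higher in heifers with a larger share and the PRLR values mostly lower, whereas STAT5A was high in 9223 and 9214 but low in 9204. None of the 3 relations passed an exact test at 0.05 over the 6 heifers with this scaling. In order of rising share (9203, 9196, 9202, 9223, 9214 and 9204), GHR was at 9.43, 11.8, 10.8, 15, 11.4 and 16.3 CPM. In the same order, PRLR was at 12.9, 12.3, 16.1, 11.5, 10.3 and 12.1 CPM, and STAT5A at 59, 61.9, 53.7, 81.4, 78.4 and 53.3 CPM. The largest step in the share, of 4.52 percentage points, lay between 9202 and 9223, with heifers of both groups on both sides.

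For GHR, Pearson's r of log2 CPM with the share was 0.82 over 6 heifers (two-sided exact permutation test, P = 0.053) and Spearman's rho was 0.71 (exact P = 0.14). Adjusted over all 14724 genes, these P-values were 0.34 and 0.45, and the smallest adjusted P-value that any gene reached was 0.28. Such an r was common: 16.3% of the tested genes had a larger one in either direction, and 14.6% had an exact P of 0.05 or less (10.2% by Spearman's rho). Without the heifers farthest from the median share, 9203 and 9204, r of GHR was 0.49 over the remaining 4 heifers, so that the relation leaned on those left out. Without 9214 alone, r of GHR was 0.95 and did pass (exact permutation test, P = 0.025), and with RLE size factors it was 0.83 (exact P = 0.047). With RLE size factors 14.7% of tested genes passed, and without 9214 the percentage of genes passing was not computed. In edgeR's quasi-likelihood fit, the slope of GHR was 0.061 on the log2 scale per percentage point of share (standard error 0.018, P-value of 0.012, adjusted p = 0.15), and 0.066 with the group as a second term (P-value of 0.012, adjusted p = 0.22). This slope was added after the data were seen, and 7.1% of tested genes had a P-value of 0.01 or less for it, GHR not among them.

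For PRLR, r was -0.51 (exact permutation test, P = 0.33, adjusted 0.6) and rho was -0.66 (exact P = 0.18, adjusted 0.48), and 52.2% of the tested genes had a larger r in either direction. Without 9203 and 9204, r was -0.65. For STAT5A, r was 0.3 (exact permutation test, P = 0.5, adjusted 0.73) and rho was -0.086 (exact P = 0.92, adjusted 0.97), so that the coefficients differed in sign. Heifer 9204, with the largest share and the lowest STAT5A, stood against the other 5: without it r was 0.85 (exact permutation test, P = 0.12), and without both 9203 and 9204 it was 0.86.

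Within the groups, the order of the heifers could be compared but not tested. From the smallest to the largest share, the PRLR values went down in both groups, from 16.1 over 11.5 to 10.3 CPM in IUCL-H and from 12.9 over 12.3 to 12.1 CPM in IUHT-H. In IUHT-H the highest PRLR value was 1.07 times the lowest, with counting errors of 2.87% to 3.46% in the single values. The step from 12.3 to 12.1 CPM was smaller than the counting error of either value. The GHR values went up with the share through all 3 IUHT-H, whereas in IUCL-H the highest GHR was in 9223, the heifer with the middle share. STAT5A was higher in the IUCL-H with the larger shares and lowest in the IUHT-H with the largest share.

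**Figure D3:**
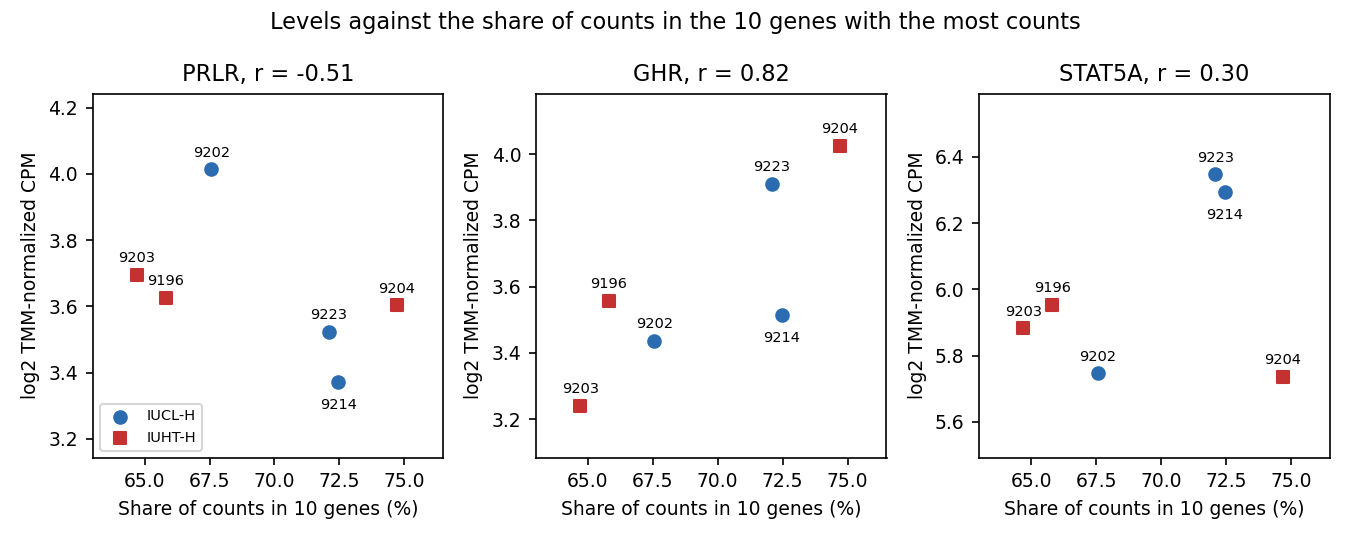
Log2 TMM-normalized CPM of each gene (vertical axis, the same span of 1.1 in each panel) against the percent of a heifer's counts in the 10 genes with the most counts (horizontal axis), with IUCL-H as circles and IUHT-H as squares. GHR lies higher at larger shares (r = 0.82), PRLR lower (r = -0.51), and the low STAT5A value of 9204 stands apart from 9214 and 9223 (r = 0.3).

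**Figure D4:**
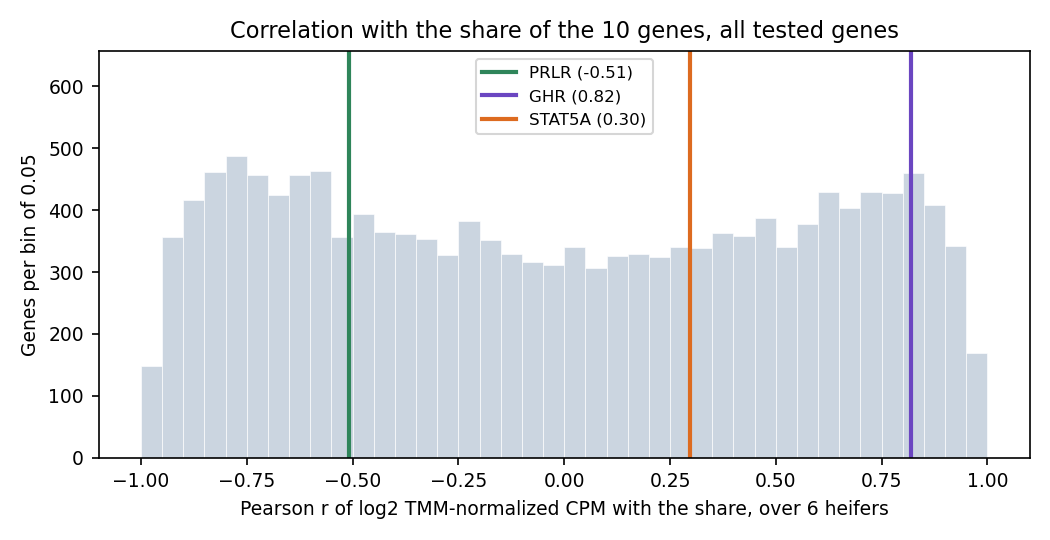
Number of tested genes (vertical axis, bins of 0.05) by their Pearson r with the share of the 10 genes over 6 heifers (horizontal axis), with PRLR, GHR and STAT5A marked as lines. The fullest bins lie near -0.8 and 0.8 rather than at 0, and 8.14% of genes have a higher r than GHR at 0.82.

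These relations depended on the scaling. In CPM by library size alone, a larger share of the 10 genes leaves less for the other genes by construction. The TMM factors, which multiply the library size, were mostly lower at larger shares. They were 1.17, 1.19, 1.1, 0.905, 0.891 and 0.812 in 9203, 9196, 9202, 9223, 9214 and 9204, the order of rising share. With CPM by library size alone, the median r over all tested genes was -0.8, against -0.025 with TMM. On that scale r was 0.068 for GHR, -0.87 for PRLR and -0.51 for STAT5A, none with an exact permutation P of 0.05 or less. Of all tested genes, 42.9% had an exact permutation P of 0.05 or less there. The level of GHR on that scale stayed between 10.2 and 14 CPM in all heifers, and that of PRLR ranged from 9.19 to 17.7 CPM. With the 10 genes left out before TMM scaling, r was 0.82 for GHR, -0.51 for PRLR and 0.3 for STAT5A. That setting used TMM too, so it could not show how the relations depend on the choice of scaling.

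A ratio of 2 genes within a library is free of scaling. Counts depend on transcript length, so the ratios were compared between heifers only. The ratio of PRLR to GHR counts was 1.37, 1.05, 1.49, 0.764, 0.906 and 0.746 in heifers 9203, 9196, 9202, 9223, 9214 and 9204, the order of rising share. This ratio was higher in the 3 heifers with the smaller shares (1.05 or more) than in the 3 with the larger shares (0.906 or less), 2 of them IUCL-H and 1 IUHT-H. Inside either set of 3 it did not fall steadily with the share. Pearson's r of the log2 ratio with the share was -0.84 (two-sided exact permutation test, P = 0.063) and Spearman's rho was -0.77 (exact P = 0.1). Adjusted for the 3 ratios computed, these P-values were 0.19 and 0.31. Without 9203 and 9204, r was -0.69. Between the groups the log2 ratio differed by 0.018 (exact permutation test, P = 1), far less than its SD of 0.44 in IUHT-H and 0.5 in IUCL-H. This group difference was 0.299 without 9202 and 0.25 without 9204 (exact P = 0.5 and 0.6).

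The log2 ratio of PRLR to STAT5A was -2.22 ± 0.1 in IUHT-H and -2.5 ± 0.66 in IUCL-H (SD), a difference of 0.28 (exact permutation test, P = 0.4). Without 9202 the difference was 0.66 (exact permutation test, P = 0.1, the smallest P that the remaining heifers allow). Without 9214 it was 0.063 and without 9223 it was 0.11 (exact P = 0.8 for both). Its IUHT-H values, between -2.33 and -2.13, lay inside an IUCL-H range that 9202 (-1.73) widened. The log2 ratio of GHR to STAT5A was -2.25 ± 0.48 in IUHT-H and -2.51 ± 0.24 in IUCL-H (SD), a difference of 0.26 (exact permutation test, P = 0.5) that was -0.011 without 9204, 0.46 without 9203 and 0.12 without 9214 (exact P = 1, 0.3 and 0.9). In IUHT-H 9204 this ratio was -1.71, the highest of the 6 heifers, with the lowest STAT5A and the highest GHR level meeting in the same animal. With the share, r was -0.42 for PRLR to STAT5A and 0.44 for GHR to STAT5A (exact permutation tests, P = 0.38 and 0.42, rho -0.14 and 0.26 with exact P = 0.8 and 0.66), and without 9203 and 9204 they were -0.78 and -0.69.

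**Figure D5:**
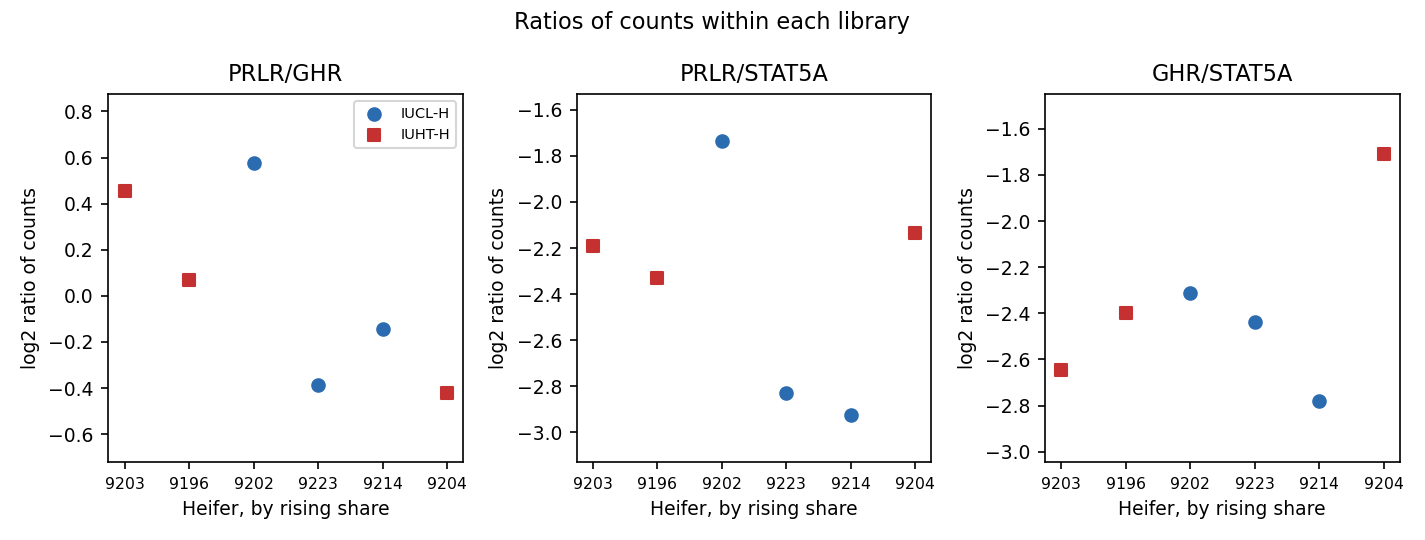
Log2 ratio of raw counts within each library (vertical axis, the same span of 1.6 in each panel) for the heifers in order of rising share of the 10 genes (horizontal axis), with IUCL-H as circles and IUHT-H as squares. PRLR/GHR is higher in heifers 9203, 9196 and 9202 than in the others, and PRLR/STAT5A peaks in 9202 at -1.73.

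The levels of the 3 genes were also compared with each other, and none of the 3 pairs had an exact P of 0.05 or less. Between PRLR and STAT5A, r of log2 CPM over the 6 heifers was -0.74 (exact permutation test, P = 0.081, adjusted 0.6 over all genes) and rho was -0.6 (exact P = 0.24, adjusted 0.55). Of the other tested genes, 15% had a larger r with PRLR in either direction. PRLR was highest in 9202, where STAT5A was almost at its lowest, and lowest in 9214, where STAT5A was high. Without the heifers farthest from the median of PRLR, r was -0.7. Between PRLR and GHR, r was -0.34 and rho -0.54 (exact P = 0.53 and 0.3, adjusted 0.82 and 0.6), and between GHR and STAT5A, r was 0.14 and rho 0.029 (exact P = 0.79 and 1, adjusted 0.94 and 1). With heifers left out in the same way, r was -0.81 and 0.41. In either direction, 62.8% of the other tested genes had a larger r with PRLR than GHR did. For GHR, 83.9% had a larger r with it than STAT5A did. Of the other genes of the pathway, 77 symbols had been listed, from ligands and Janus kinases to SOCS inhibitors and milk proteins, and only these 3 had an identifier in the sources used, so the rest were not analysed here.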

How the data were processed

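Libraries from mammary biopsies of 3 IUHT-H and 3 IUCL-H were analysed. The study describes a further IUCL-H heifer, which was not analysed here. The authors mapped the reads with TopHat (version 2.0.13) and deposited whole-number counts of reads per Ensembl gene, unfiltered and not normalized. The methods name bosTau7 and the submitters' processing notes UMD3.1 as the genome. The notes also name FastQC and HTSeq without a role, and the strand setting is not given in the sources used here. From these counts, filterByExpr, TMM factors (0.812 to 1.19) and the quasi-likelihood test of edgeR (version 4.0.16, R 4.3.3) were used over all 6 heifers without covariates, with Benjamini-Hochberg adjustment over all 14724 genes tested. The standard error is the log2 fold change divided by the square root of F, and 95% intervals use the test's degrees of freedom. Log2 CPM had a prior count of 2. Correlations were tested over all 720 orders of the heifers for every tested gene (numpy 2.4.6). Group means were compared by exact permutation over all splits of the heifers, which scipy (1.17.1) repeated for the share alone. Other tests were edgeR's exact and likelihood ratio tests and DESeq2 (version 1.42.0). The scripts were tested on simulated data. Libraries were separate heifers and no batch was labelled. At the counts of these genes, counting error was at most 3.46%.

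The reference table (RefSeq, ARS-UCD2.0) paired 0 of the 24579 identifiers with a name. The names of the 3 genes came with the choice of genes, those of CLDN3 and JCHAIN from the study's supplementary tables. Genes were to be named if they were the 3 chosen, list members past the cut-off or of given families, or the 5 most alike. For want of names, the lists, the STAT5A to STAT5B ratio and the milk protein share were not run. No sequence was used. Genes, lists and tests were chosen with earlier results of these data known.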

Additional observations from a re-analysis of the deposited data

How the results depend on the processing

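Of 132 recomputed values, 112 kept direction and side of the threshold, or for counts of genes stayed within 1.5 times. For the group differences of the share and of the ratios, the smallest possible exact permutation P of 0.1 lay above the threshold of 0.05. Only their direction could therefore change, and their side of the threshold says nothing. With single heifers left out, the log2 fold change of IUHT-H against IUCL-H ranged from -0.15 to 0.19 for PRLR, from -0.23 to 0.18 for GHR and from -0.46 to -0.19 for STAT5A, so that the sign of PRLR turned without 9202 and that of GHR without 9202 (-0.081), 9214 (-0.05) or 9204. With library size scaling alone, PRLR turned to 0.089 and the r of STAT5A with the share to -0.51. The exact test of edgeR gave 108 genes at P ≤ 0.01, its likelihood ratio test 112 and DESeq2 124, against 63, and leaving out a heifer gave 38 (9214) to 246 (9202) or 225 (9204). With RLE size factors, r of GHR with the share was 0.83, with an exact permutation P = 0.047, where 14.7% of tested genes had 0.05 or less. Without single heifers, r ranged from 0.69 to 0.95 (9214, exact permutation P = 0.025) for GHR, from -0.61 to -0.4 for PRLR and from 0.13 to 0.85 for STAT5A. The group difference of the log2 ratio PRLR/GHR turned to -0.029 as a difference of fitted fold changes. It turned to -0.061, -0.18 and -0.19 without 9214, 9223 or 9203 (up to 0.299 without 9202). That of GHR/STAT5A turned to -0.011 without 9204 (up to 0.46 without 9203). That of PRLR/STAT5A stayed between 0.063 (9214) and 0.66 (9202), and the share difference between -5.45 (9204) and -0.45 (9203) points. The cause was not tested. No paired analysis was possible because the labels give heifer numbers that the groups do not share. With 3 heifers per group, the intervals of the fold changes, not the counting depth, limit what can be told apart.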

Other observations

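The rule for genes with the most similar pattern named none, since no identifier had a symbol in the reference table. Among 8325 other genes with a mean of at least 5 CPM, 53 had r of 0.9 or more with PRLR over the 6 heifers, 127 with GHR and 148 with STAT5A, which is 0.637%, 1.53% and 1.78% of them. The highest r was 0.997 with PRLR (ENSBTAG00000017363), 0.989 with GHR (ENSBTAG00000002267) and 0.991 with STAT5A (ENSBTAG00000018534). Over only 6 heifers these values are a description, and they say nothing of shared function.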
